A study of Mus musculus with 8 samples.

Results

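The transcripts followed here are those of 10 mouse genes that write, read or erase N6-methyladenosine (m6A) on RNA, namely Mettl3, Mettl14, Wtap, Ythdf1, Ythdf2, Ythdf3, Ythdc1, Ythdc2, Fto and Alkbh5. They were picked by their symbols, by a rule that uses no measured value, and all 10 were found among the 25574 genes of the expression table. The study separated the RNA of mouse oocytes at nuclear envelope breakdown (NEBD), the step at which meiosis resumes, on sucrose gradients, and compared transcripts bound to polysomes with those that were not. The polysomal (P) dataset held 4 libraries from gradient fractions 6 to 10, and the non-polysomal (NP) dataset held 4 libraries from fractions 2 to 5, of 10 fractions in all. By the paper's account, NP and P were pooled from the same 4 gradients. The cells were oocytes of CD1 mice aged 8 weeks, collected 46 h after 5 IU of pregnant mare serum gonadotropin. They were freed of surrounding cells and cultured for 180 min without the inhibitor IBMX. Oocytes that underwent NEBD were selected during this culture. Cycloheximide at 0.1 mg/mL, which holds ribosomes on mRNA, was then present for a further 10 min. Every gradient pooled 200 oocytes, so fewer oocytes with a transcript and less of it per oocyte cannot be told apart.

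m6A is a methyl mark on adenosines inside mRNA. METTL3 is the enzyme that places it, METTL14 is its RNA-binding partner and WTAP anchors the pair in the nucleus. YTH-domain proteins bind the mark, the YTHDF proteins and YTHDC2 in the cytoplasm and YTHDC1 in the nucleus, while FTO and ALKBH5 are dioxygenases that can remove the methyl group. In mouse oocytes, which stop transcribing before meiosis resumes and depend on stored mRNA, YTHDF2 is known for lowering the dose of maternal transcripts and YTHDC1 for the processing of nuclear RNA. The libraries measure the mRNAs of these proteins, not the proteins, and not m6A itself.

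Levels are given as FPKM, a measure of fragments scaled to transcript length and library size, as the authors deposited it. Whole read numbers could be recovered from the steps between FPKM values, and the libraries came to 1299377 to 7594637 reads in NP and 2677946 to 4699328 in P. All 12 oocyte markers had a mean above 1 FPKM, with summed levels of 7039 to 14036 FPKM in NP and 9388 to 35982 in P libraries, and Gdf9, an oocyte growth factor, was the highest of them. Of 14 cumulus and granulosa cell markers, 5 (Ptx3, Foxl2, Inhba, Fst and Has2) were at 0 in every library and 3 (Cyp19a1, the highest at 24.8 FPKM, Cyp11a1 and Kitl) had a mean above 1 FPKM, the list summing to 6.25 to 128 FPKM in NP and 10.5 to 62.6 in P. Of the 5 blood markers found, 3 (Ptprc, Cd3e and Hba-a1) were at 0 throughout and 2 had a mean above 1 FPKM, Csf1r at 25.4 FPKM and Cd68, and the sums were 7.52 to 45.2 FPKM in NP and 2.06 to 76.8 in P.

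The mRNA of the eraser Alkbh5 stood at the head of the 10 in both datasets, followed by Ythdf2, Ythdf3, Mettl3 and Wtap in that order, and none of the 10 was called different between P and NP. At an adjusted p below 0.1 by limma, 0 of the 10 passed against a background of 0.021% of all tested genes (3 of 14292), and 0 of the 10 had an unadjusted p below 0.05, against 9.95% of tested genes. No member had its 4 NP libraries all above its 4 P libraries, which 5.92% of tested genes did, and none had all P above all NP, which 0.357% did. With limma-voom on the recovered reads, 0 of the 10 passed an adjusted p of 0.1, beside a background of 1.47% (189 of 12899). These data bound the differences only loosely, since the 95% interval of the log2 fold change was −0.62 to 1.76 for Alkbh5, the narrowest of the 10, and −2.05 to 2.71 for Ythdc1, the widest.

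**Figure D1:**
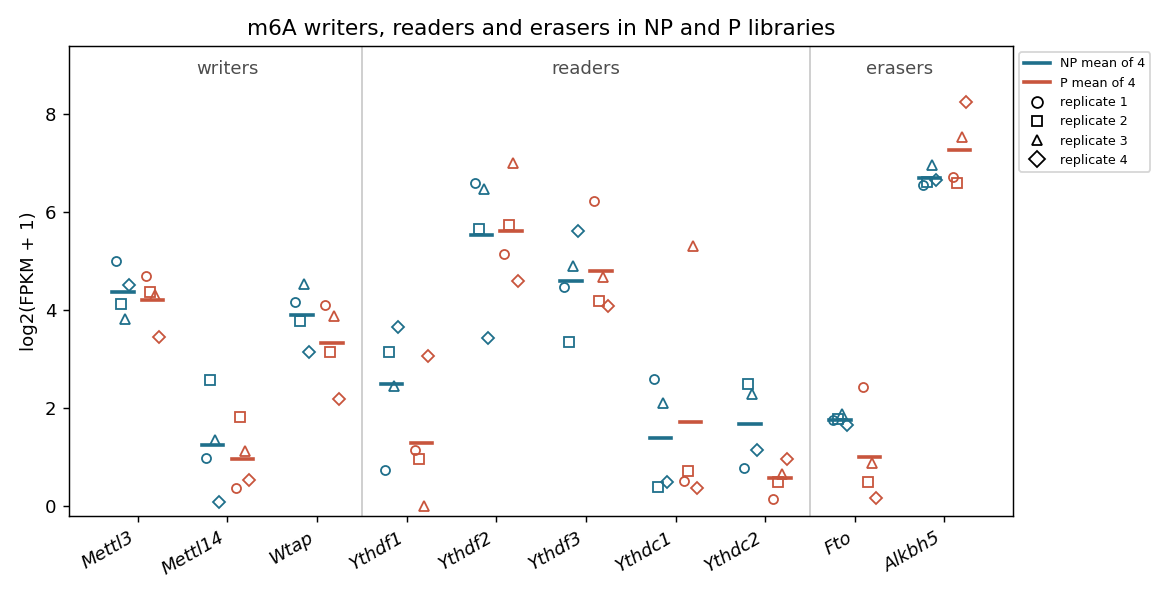
Levels of the 10 genes on the log2(FPKM + 1) scale, with each symbol a library, its shape the replicate number and the bars the means of 4 libraries in NP (blue) and P (red). Alkbh5 is the highest in both datasets, and the NP and P points of every gene overlap.

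Mettl3, the catalytic subunit, lies at chr14:52294668-52305128 (GRCm38, minus strand). It measured 31.3, 16.4, 13.1 and 22.0 FPKM in NP replicates 1 to 4 and 25.1, 19.8, 18.8 and 9.93 FPKM in P replicates 1 to 4. The P libraries lay within the NP range except for P replicate 4, which was below it. The means were 20.7 ± 7.96 FPKM in NP and 18.4 ± 6.29 in P (SD, n = 4 each), and the log2 fold change of P over NP was −0.16 (SE 0.65, 95% interval −1.56 to 1.25, limma adjusted p = 0.922). Of the 5076 exon bases of Mettl3, 933 also belong to Tox4 on the opposite strand, and the library kit does not mark strand, so reads there cannot be assigned to either gene.

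Mettl14, the RNA-binding partner, was far lower than the enzyme it stabilises. It stood at 0.979, 4.96, 1.56 and 0.0514 FPKM in NP and at 0.291, 2.50, 1.19 and 0.438 FPKM in P, backed by 2 to 58 reads per library. The datasets overlapped, and NP alone spanned the whole range. P over NP came to −0.29 on the log2 scale (SE 0.68, interval −1.74 to 1.16, adjusted p = 0.862). Within each library, Mettl3 exceeded Mettl14, by a log2 ratio of (FPKM + 1) of 3.12 ± 1.36 in NP and 3.25 ± 0.764 in P (SD, n = 4 each). The difference between the datasets in this ratio was 0.13 (two-sided exact permutation p = 0.857).

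Wtap, the regulatory subunit of the writer complex, gave 17.0, 12.7, 22.2 and 7.88 FPKM in NP and 16.3, 7.78, 13.8 and 3.57 FPKM in P. The last replicate was the lowest in both datasets. Its log2 fold change was −0.57 (SE 0.75, interval −2.18 to 1.03, adjusted p = 0.753), and the ratio of Mettl3 to Wtap moved by 0.42 on the log2 scale (exact permutation p = 0.514). Wtap has near copies elsewhere in GRCm38, among them 1489 aligned bases on chromosome 2 that are 99.5% identical to its longest transcript, so some of its reads could stem from, or be lost to, those copies. When each library was scaled to the same median FPKM, the log2 fold changes of Mettl3, Mettl14 and Wtap turned positive, at 0.69, 0.20 and 0.24.

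Of the cytoplasmic readers, Ythdf2 and Ythdf3 were well above Ythdf1 on average. Ythdf2, the reader best known for sending methylated mRNA to decay, lies at chr4:132184912-132212303 and was at 95.2, 49.7, 88.0 and 9.82 FPKM in NP and at 34.3, 52.4, 128 and 23.3 FPKM in P. Replicate 4 was the lowest in both datasets, and the spread exceeded the difference between the means of 60.7 ± 39.4 and 59.6 ± 47.4 FPKM. This gave a log2 fold change of 0.08 (SE 0.79, interval −1.62 to 1.79, adjusted p = 0.965). Stretches of 2879 bases on the X chromosome, 93.9% and 93.3% identical to the Ythdf2 transcript, may share reads with it.

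Ythdf3, at chr3:16183183-16217035, was measured at 21.1, 9.24, 29.0 and 47.8 FPKM in NP and at 73.9, 17.2, 24.7 and 16.0 FPKM in P. P replicate 1 lay above all others, and the remaining P libraries were inside the NP range. On the log2 scale P differed from NP by 0.21 (SE 0.73, interval −1.36 to 1.78, adjusted p = 0.907), and by −0.27 without P replicate 1.

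Ythdf1, a reader described as promoting translation of methylated mRNA, was the lowest of the 3 paralogues on average. Its values were 0.661, 7.89, 4.47 and 11.6 FPKM in NP and 1.22, 0.941, 0 and 7.32 FPKM in P. P replicate 3 had no read, which allows up to 0.204 FPKM when 3 reads are taken as the limit. In all, 3 of the NP libraries were above 3 of the P libraries, but NP replicate 1 and P replicate 4 crossed over. Its log2 fold change of −1.21 had an SE of 0.96 and an interval of −3.27 to 0.85 (adjusted p = 0.651).

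Of the summed FPKM of the 3 YTHDF genes, Ythdf2 took 81.4, 74.3, 72.4 and 14.2% in the NP libraries and 31.4, 74.3, 83.9 and 50.0% in the P libraries. Ythdf2 was thus the leading paralogue in 6 of 8 libraries, and Ythdf3 led in NP replicate 4 and P replicate 1, with 69.0% and 67.5%. No log2 ratio among the paralogues passed a test of the difference between datasets. The difference was −1.29 for Ythdf1 over Ythdf2 (exact permutation p = 0.486), −1.42 for Ythdf1 over Ythdf3 (p = 0.286, same exact test) and −0.13 for Ythdf2 over Ythdf3 (p = 0.971, same exact test).

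Ythdc1, the nuclear reader that acts on splicing and polyadenylation, was low in most libraries, with 4.99, 0.297, 3.32 and 0.407 FPKM in NP. In P it was at 0.411, 0.633, 38.6 and 0.289 FPKM. P replicate 3 alone, with 1776 reads, set the P mean of 9.98 ± 19.1 FPKM (SD, n = 4), whereas the other P libraries held 8 to 21 reads. The log2 fold change was 0.33 with P replicate 3 (SE 1.11, interval −2.05 to 2.71, adjusted p = 0.905) and −0.87 without it.

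Ythdc2, a YTH protein with an RNA helicase domain that is needed for entry into meiosis, had the lowest P to NP ratio of means of the 10. It stood at 0.696, 4.64, 3.90 and 1.21 FPKM in NP and at 0.101, 0.396, 0.571 and 0.949 FPKM in P, corresponding to 14 to 179 reads in NP and 3 to 16 reads in P. NP replicates 2, 3 and 4 were above every P library, and NP replicate 1 lay between P replicates 3 and 4. The means were 2.61 ± 1.95 and 0.504 ± 0.354 FPKM (SD, n = 4 each), the P mean being 0.193 times that of NP. P over NP was −1.12 on the log2 scale (SE 0.62, interval −2.46 to 0.23, limma unadjusted p = 0.096, adjusted p = 0.545), and the exact permutation test gave p = 0.057, above the smallest value of 0.0286 that 4 against 4 libraries can reach. Without NP replicate 1 or without P replicate 4 the remaining libraries did not overlap, NP being above P, which was also the case for 8.43% and 8.65% of all genes tested in those settings. As a rank among tested genes within its library, Ythdc2 had a mean percentile of 40.8 in NP and 38.1 in P (exact permutation p = 0.657). With limma-voom on recovered reads the log2 fold change of Ythdc2 was −2.25 (adjusted p = 0.489). The log2 ratio of Ythdc1 to Ythdc2 differed by 1.44 between datasets (exact permutation p = 0.371), by 2.21 with a pseudocount of 0.1 and by 0.28 without P replicate 3.

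Of the erasers, Alkbh5 was the highest of the 10 and Fto the eighth in mean level in both datasets. Alkbh5, at chr11:60536381-60558512, was at 92.9, 98.0, 124 and 100.4 FPKM in NP and at 105, 96.2, 184 and 302 FPKM in P, with 762 to 5402 reads behind each value. P replicates 3 and 4 were above every NP library, and P replicates 1 and 2 were inside the NP range. The means were 103.8 ± 13.8 and 172 ± 95.5 FPKM (SD, n = 4 each), a P to NP ratio of 1.66. On the log2 scale the difference was 0.57 (SE 0.55, interval −0.62 to 1.76, adjusted p = 0.690), and the exact permutation test gave p = 0.229. Scaled to the same median FPKM per library, all 4 P libraries were above all 4 NP libraries, with a log2 fold change of 1.46 (limma unadjusted p = 0.033, adjusted p = 0.622). Under that scaling 2.74% of all tested genes had every P library above every NP library. Without P replicate 4 the unscaled fold change was 0.25.

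Among all tested genes of its library, Alkbh5 had percentiles of 91.1 to 95.1 in NP and of 92.7 to 97.2 in P (exact permutation p = 0.143). Its level was therefore high in each of the 8 libraries, whatever the scaling between them. It made up 34.8 to 49.4% of the summed FPKM of the 10 genes in NP and 40.2 to 83.0% in P, the last value being that of P replicate 4.

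Fto, on chromosome 8 from 91313532 to 91668439, was the least variable of the 10 in NP, at 2.36, 2.42, 2.66 and 2.16 FPKM. In P it was at 4.41, 0.407, 0.846 and 0.115 FPKM, from 270, 17, 49 and 4 reads. P replicate 1 lay above all NP libraries, and the other P libraries lay below all of them, so that without P replicate 1 every NP library was above every P library, as in 11.4% of all genes tested then. The log2 fold change was −0.77 (SE 0.72, interval −2.32 to 0.77, adjusted p = 0.684), and it was 0.19 after quantile normalisation.

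Apart from the pseudocount of 1, the ratio of Fto to Alkbh5 within a library does not depend on how libraries are scaled to each other. On the log2 scale it was −4.81, −4.85, −5.09 and −5.00 in NP and −4.29, −6.11, −6.65 and −8.09 in P. The NP libraries sat within a narrow band, and the P libraries lay on either side of it. The difference of −1.34 (SE 0.79) had an exact permutation p of 0.143, and p = 0.720 after Benjamini-Hochberg adjustment over the 7 ratios compared. Without P replicate 1, the only P library above the NP band, it was −2.01. The 3 P libraries left all lay below NP, which fixes the exact permutation p on 4 against 3 libraries at its smallest value, 0.0286. That p therefore follows from the library left out and is no separate evidence. None of the other 6 ratios had an adjusted p below 0.720 either.

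**Figure D2:**
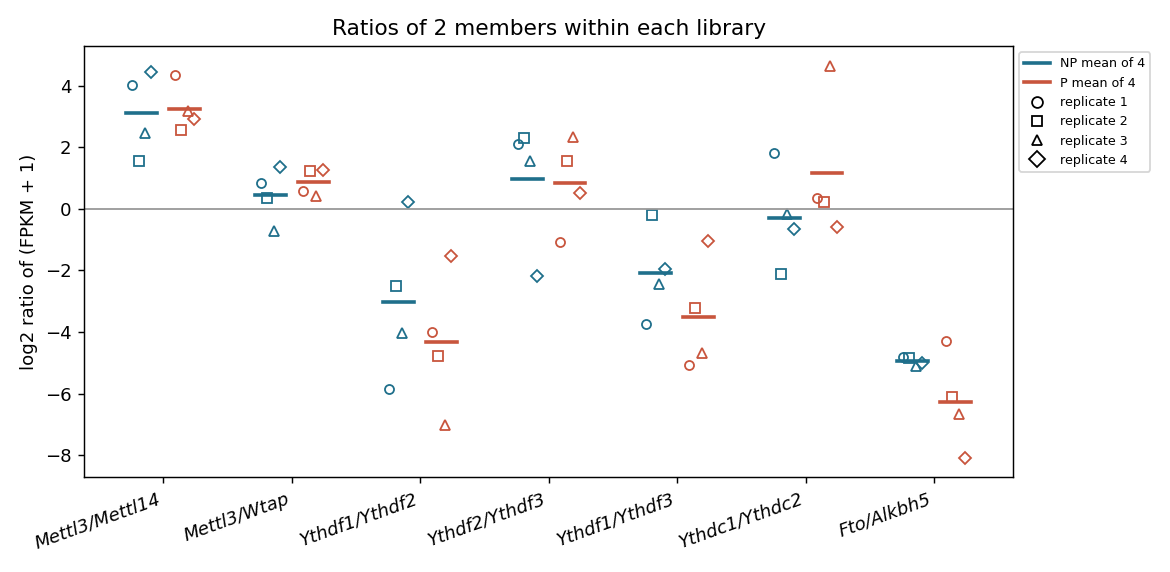
Log2 ratios of (FPKM + 1) for 7 pairs of the genes, taken within each library (symbols by replicate number, bars the means of 4 libraries in NP in blue and P in red). The 4 NP libraries of the Fto to Alkbh5 ratio sit between −5.09 and −4.81, while those of P run from −8.09 to −4.29.

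In order of mean level, NP ran Alkbh5, Ythdf2, Ythdf3, Mettl3, Wtap, Ythdf1, Ythdc2, Fto, Ythdc1 and Mettl14. P ran Alkbh5, Ythdf2, Ythdf3, Mettl3, Wtap, Ythdc1, Ythdf1, Fto, Mettl14 and Ythdc2. In every neighbouring pair of either order, the ranges of the libraries overlapped, so no step in the order exceeded the spread. Alkbh5 exceeded Ythdf2 in 3 of 4 NP libraries and 4 of 4 P libraries, and Mettl3 exceeded Wtap in 3 of 4 and 4 of 4. Other steps went against most libraries, as in P Ythdc1 exceeded Ythdf1, and Fto exceeded Mettl14, in only 1 of 4 each. Above 10 FPKM there were 3 to 6 of the 10 genes in a library, and above 0.1 FPKM there were 9 or 10.

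Summed by role, the erasers held 44.5 ± 6.64% of the FPKM of the 10 genes in NP and 54.7 ± 19.1% in P (SD, n = 4 each), the readers 39.9 ± 5.92% and 34.5 ± 14.9%, and the writers 15.6 ± 2.49% and 10.8 ± 5.81%. The eraser share was almost all Alkbh5, at 43.5% in NP and 54.1% in P, with Fto at 1.01% and 0.534%. The ranges of the 2 datasets overlapped for each role. P replicate 4 stood apart with 83.0% for the erasers, and the other P libraries were at 41.8 to 48.7%.

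**Figure D3:**
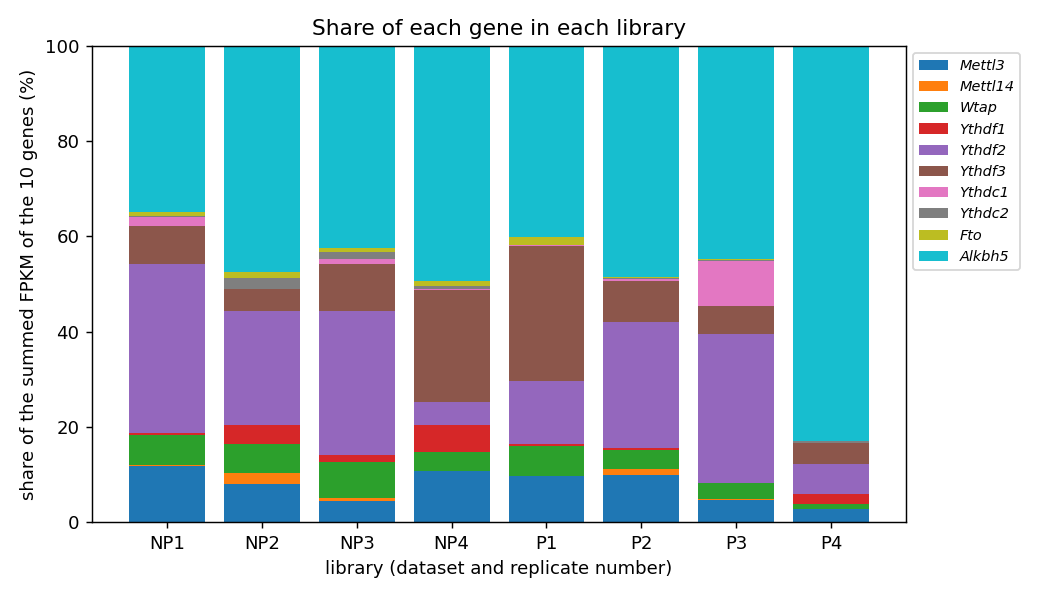
Share of each gene in the summed FPKM of the 10 genes, per library (bars, in percent). Alkbh5 takes the largest share in 7 of 8 libraries and 83.0% in P replicate 4, and Ythdf2 takes slightly more than Alkbh5 in NP replicate 1.

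Across the 10 genes the median log2 fold change was −0.22, beside −0.39 over all tested genes, and 6 of the 10 were below 0, beside 71.4% of all genes. With each library scaled to the same median FPKM, the median of the 10 was 0.46 beside −0.03 for all genes, and 3 of the 10 were below 0. Quantile normalisation gave 0.37 beside −0.02, and 2 of the 10 below 0. The limma-voom fit on recovered reads gave −0.02 for the 10 and −0.91 for all genes tested in it. Under the first 3 scalings Ythdf1 and Ythdc2 had negative values, and Ythdf2, Ythdf3, Ythdc1 and Alkbh5 had positive ones.

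**Figure D4:**
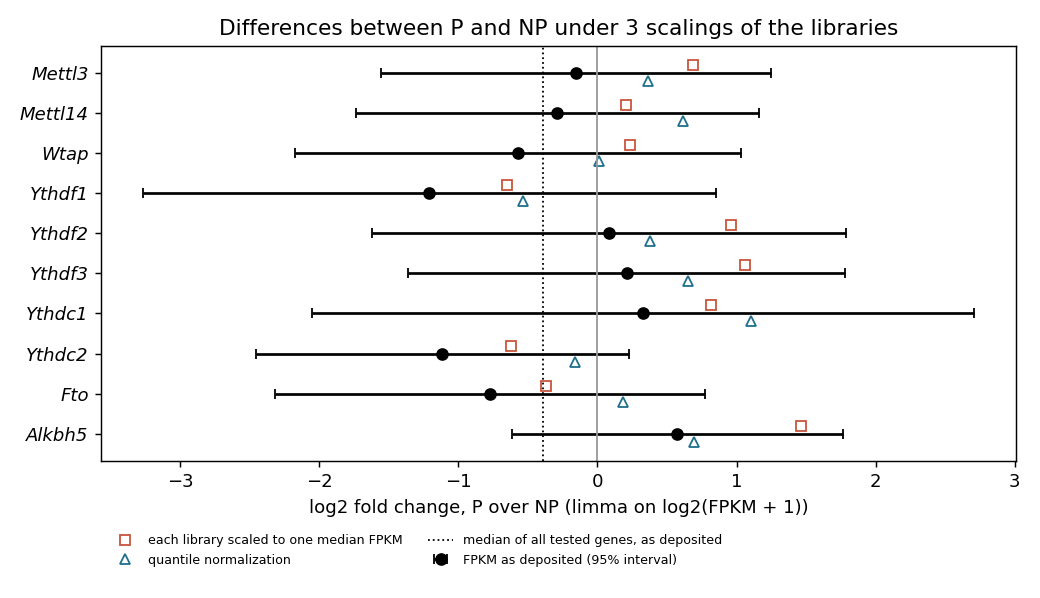
Log2 fold changes of P over NP for the 10 genes, as deposited with 95% intervals (black), after scaling each library to the same median (red squares) and after quantile normalisation (blue triangles). Every black interval spans 0, and scaling to the same median moves each gene to the right.

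Dormant oocyte mRNAs are known to be recruited to polysomes when their poly(A) tails are lengthened, which depends on cytoplasmic polyadenylation elements (CPE) close to the AATAAA hexamer at the 3′ end. The last 100 bases of the GENCODE M21 principal transcript of each gene were searched, on the transcript strand, for the CPE letters TTTTAT and TTTTAAT, and the last 40 bases for AATAAA. A CPE was present in 2 of 10 genes, Mettl14 and Wtap, near the share of 19.4% of 11069 tested genes with such a 3′ end. The hexamer was present in 9 of 10 genes, Ythdf2 being the exception, and in 62.2% of those genes. The CPE site of Mettl14 is shown and, of the 2 CPE sites in Wtap, the one nearest the 3′ end. No other member had one. The hexamer sites of Alkbh5 and Fto are shown because these genes stood at the head and near the foot of the list. Capitals mark the motif (GRCm38, coordinates of the stretch printed).
Mettl14 CPE, chr3:123368324-123368353, minus strand: gggtaactccttTTTTATtttgctataact
Wtap CPE, chr17:12966796-12966821, minus strand: ctaaataaacatTTTTATtacgactc
Alkbh5 hexamer, chr11:60558477-60558506, plus strand: catactgagttaAATAAAatacattattta
Fto hexamer, chr8:91668399-91668428, plus strand: ttgttcatacacAATAAAgaattaaacgat

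In Mettl14 the CPE began 45 bases and the hexamer 22 bases from the 3′ end of the transcript searched. The Mettl14 gene reaches further, to chr3:123364645, and that stretch was not searched. In Wtap the CPE nearest the end began 14 bases and the hexamer 23 bases from the end, so this CPE lay past the hexamer. The P to NP ratios of the means of these CPE-bearing genes were 0.585 and 0.695, both inside the span of the other members. The 3′ untranslated regions ranged from 141 bases in Mettl3 to 4097 bases in Alkbh5, the transcript with the highest level, and the encoded proteins from 395 residues in ALKBH5 to 1445 in YTHDC2.

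A wider list of 31 genes covered the remaining writer subunits and other methyltransferases, other m6A-binding proteins, partners of the YTH readers and enzymes of methyl donor supply. Of the 30 that could be tested, 0 passed an adjusted p of 0.1, beside 0.021% of all tested genes. Negative log2 fold changes were found for 17 and positive ones for 13, beside 71.4% negative over all tested genes. Their median was −0.13, beside −0.39 over all tested genes. Unadjusted p values below 0.05 were found for 2 genes, both lower in P, beside the 9.95% of all genes. By role, 7 of 11 writer genes, 5 of 8 binding proteins, 4 of 8 reader partners and 1 of 3 methyl donor genes had negative values. Igf2bp1 was not tested, as its mean was below 0.1 FPKM in both datasets.

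Ahcy, which encodes the hydrolase that clears S-adenosylhomocysteine, the by-product of methylation, was the 1 gene of the 31 whose libraries did not overlap. It was at 48.6, 18.4, 18.1 and 24.2 FPKM in NP and at 5.01, 4.23, 3.21 and 0.666 FPKM in P. Every NP library was thus above every P library, as was the case for 5.92% of all tested genes. The log2 fold change was −2.76 (SE 0.77, interval −4.42 to −1.10, limma adjusted p = 0.376). Without overlap the exact permutation p is fixed at 0.0286, the smallest possible, so it is no separate evidence. The log2 fold change was −2.06 after median scaling and −2.07 after quantile normalisation, again without overlap. Under those scalings 2.83% and 2.53% of all tested genes had every NP library above every P library. The 2 genes for the subunits of methionine adenosyltransferase, which makes the methyl donor, had positive values of 0.07 (Mat2a, adjusted p = 0.970) and 0.71 (Mat2b, adjusted p = 0.652).

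Igf2bp2, whose protein binds methylated mRNA and is known for stabilising it, measured 189, 192, 265 and 108 FPKM in NP and 23.8, 113, 111 and 34.0 FPKM in P. NP replicate 4 lay within the P range and the other NP libraries above it. Its log2 fold change was −1.65 (SE 0.65, limma unadjusted p = 0.023, adjusted p = 0.440), and −0.76 after median scaling. Nxf1, the mRNA export receptor that YTHDC1 is reported to work with, had a log2 fold change of −2.35 (adjusted p = 0.533) that rested on P replicate 4 at 0.981 FPKM and was −0.79 without it.

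The 3 largest positive values among the 31 were those of Eif3a, a translation initiation factor subunit (1.38, adjusted p = 0.570), Hnrnpa2b1, a nuclear RNA-binding protein (1.02, adjusted p = 0.670), and Cnot1, the scaffold of the deadenylase complex that YTHDF2 recruits (0.75, adjusted p = 0.649). Cnot1 was at 34.5, 20.4, 48.0 and 21.8 FPKM in NP and at 68.3, 55.4, 45.1 and 37.2 FPKM in P. The datasets overlapped through NP replicate 3 only. After median scaling, 4 of the 30 tested genes (Cnot1, Eif3a, Mat2b and Mettl5) had every P library above every NP library, beside 2.74% of all tested genes, with log2 fold changes of 1.63, 1.97, 1.61 and 0.66 (adjusted p = 0.611, 0.622, 0.621 and 0.716). After quantile normalisation these were 4 as well (Eif3a, Mettl5, Srsf10 and Zc3h13), beside 4.62%. As deposited, 0 of the 30 had this pattern, so it depended on the scaling. Mettl5 was near the floor, with deposited means of 0.539 FPKM in NP and 0.974 in P, and Eif3a was low in NP (1.19 and 5.56).

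**Figure D5:**
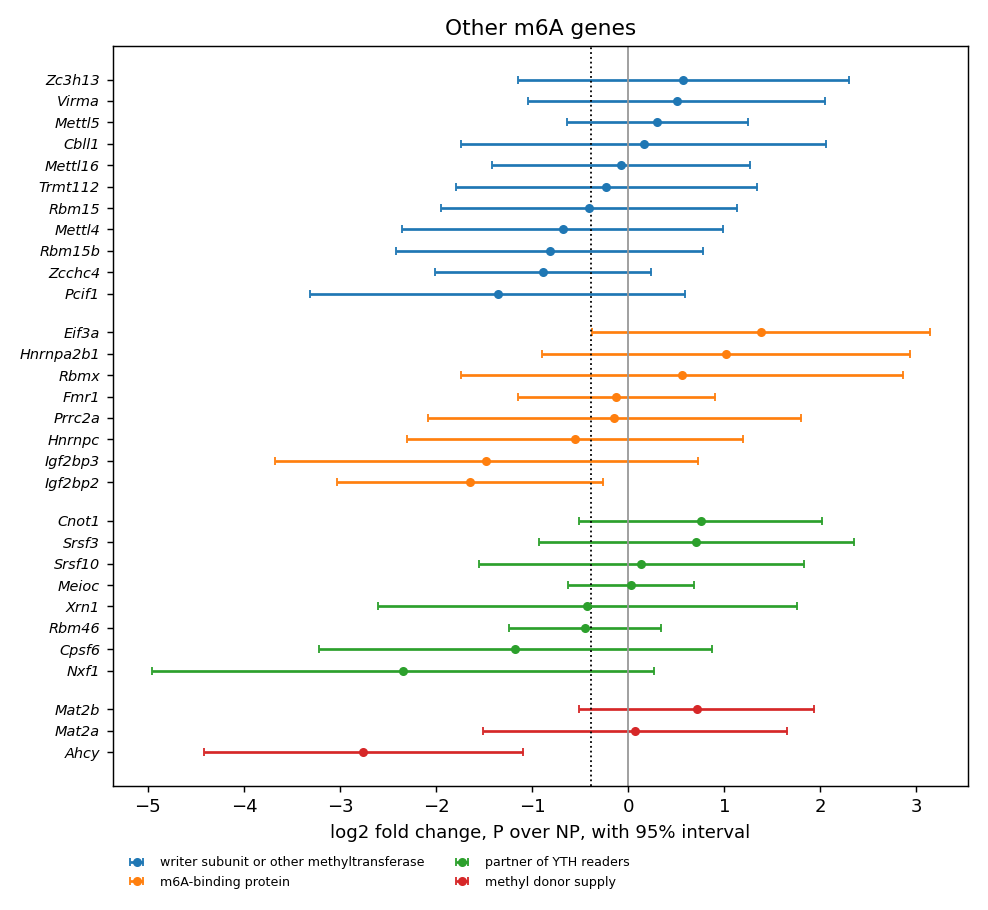
Log2 fold changes of P over NP with 95% intervals for the 30 tested genes of the wider list, coloured by role, with 0 as a solid and the median of all tested genes as a dotted line. The intervals of Ahcy and Igf2bp2 alone stay clear of 0.

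The genes whose pattern over the 8 libraries was most like that of Alkbh5, by Pearson's r on log2(FPKM + 1) among 5638 genes with a mean above 10 FPKM, were Htt (0.991), Vmn2r25 (0.990), Adamts3 (0.957), Arid2 (0.947) and Igf2r (0.947). Spearman's rho for them was 0.714 to 0.905. Leaving out P replicates 3 and 4, where Alkbh5 was farthest from its median, r was 0.813, 0.856, 0.317, 0.806 and 0.596. It was thus lower for all 5 genes, most of all for Adamts3 and then Igf2r. Their mean levels ran from 1.39 to 14.1 FPKM in NP and from 27.1 to 103 FPKM in P, beside 103.8 and 172 FPKM for Alkbh5. No chance level was computed for the highest 5 of 5638 genes.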

How the data were processed

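RNA from the P and NP fractions was depleted of rRNA, reverse transcribed with random and oligo(dT) primers, amplified (REPLI-g WTA) and made into libraries with a transposase kit that does not mark strand. Per the submitters' notes, trimming used Trim Galore 0.4.1 and alignment used HISAT2 2.0.5 on the GRCm38 build. The authors computed FPKM per gene in SeqMonk. The deposited FPKM table was used. A list of expressed genes and a DESeq2 result table, and columns with the authors' ratios and p-values, were not used. Whole-transcriptome amplification can add spread to low transcripts, and the read numbers behind each value cover counting error only. Groups and replicate numbers came from the titles. The methods call the gradients independent biological replicates. NP and P libraries were tested as independent of each other, although the paper describes both as pooled from the same gradients.

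Differences were tested with limma 3.58.1 (R 4.3.3, moderated with trend, two-sided) on log2(FPKM + 1). The fit held the 14292 genes whose mean passed 0.1 FPKM in at least 1 dataset, with p-values adjusted by Benjamini-Hochberg over all of them. A fold change on this scale understates that of low genes. Ratios of 2 members were compared by exact permutation over the 70 assignments of libraries (scipy 1.17.1). Reads were recovered for 13590 genes (87.2% of those with any value, whole within 0.01 of a read), 6978 with annotated exon lengths and 6612 with a length searched over at least 4 libraries, and a step may stand for a read or a fragment, which the sources leave unstated. Near copies were sought with minimap2 2.31. Scripts were tested on simulated data. The members and the lists were chosen with earlier results of these data known. Named were all 10 members, and of the 31 other genes those called, those without overlap and the 3 largest fold changes in each direction above 1 FPKM, plus the 5 genes most correlated with the highest member. Mat2a, Mat2b, Mettl5, Srsf10, Zc3h13 and Igf2bp1 were named after their values were seen. Virma and Meioc were matched by the older symbols 1110037F02Rik and Gm1564. Alternatives were another pseudocount, other filters and scalings, a replicate block, limma-voom on recovered reads and leaving out each library.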

Additional observations from a re-analysis of the deposited data

Results flagged for a closer look

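Of 34 groups of 4 libraries examined for a lone extreme value, 5 were picked out by a gap that took up more than 0.829 of the group's range. Chance picks out about 1 group in 20 where values are normally distributed. That was not checked for these FPKM values, so the number picked out cannot be read as an excess. In P these were Ythdf1 at 7.32 FPKM in replicate 4 (gap 0.833 of the range), Ythdf3 at 73.9 FPKM in replicate 1 (0.849), Ythdc1 at 38.6 FPKM in replicate 3 (0.991) and Fto at 4.41 FPKM in replicate 1 (0.830). In NP it was the log2 ratio of Ythdf2 to Ythdf3, at −2.17 in replicate 4 (0.835).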

How the results depend on the processing

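Whatever the setting, 0 of the 10 genes were called. Calls over all genes numbered 3 at first, 5 with a pseudocount of 0.1, 5 above a mean of 1 FPKM, 189 with limma-voom, 1 with the replicate block, and 0 without a filter, after median scaling and after quantile normalisation. Leaving out 1 library gave 0 to 5. Genes without overlap numbered 1 (Alkbh5, P above NP) after median scaling, and 0 to 1 when 1 library was left out (NP above P: Ythdc2 without NP replicate 1 or P replicate 4, Fto without P replicate 1), beside 2.74% of all genes and 8.43, 8.65 and 11.4%. The median over the 10 genes was 0.46 after median scaling, 0.37 after quantile normalisation and −0.65 to −0.024 on leaving out 1 library, the lowest without NP replicate 4. Median scaling reversed Mettl3 (0.69), Mettl14 (0.20) and Wtap (0.24), and quantile normalisation reversed Mettl3 (0.36), Mettl14 (0.61), Wtap (0.0091) and Fto (0.19). With limma-voom, Mettl14 was at 0.10, and Ythdf1, Ythdc2 and Fto were at −2.60, −2.25 and −1.71 (at −2.08, −2.04 and −1.59 with a pseudocount of 0.1), none called. On leaving out 1 library the log2 fold change ranged from −0.34 to 0.10 for Mettl3, −0.68 to 0.15 for Mettl14, −0.62 to 0.43 for Ythdf2, −0.27 to 0.55 for Ythdf3 and −0.87 to 0.78 for Ythdc1. The log2 ratio differences ranged from −0.39 to 0.58 for Mettl3 to Mettl14, −1.17 to 0.51 for Ythdf2 to Ythdf3, −2.23 to −0.20 for Ythdf1 to Ythdf2, −2.24 to −0.79 for Ythdf1 to Ythdf3, 0.28 to 2.15 for Ythdc1 to Ythdc2, 0.02 to 0.72 for Mettl3 to Wtap and −2.01 to −0.74 for Fto to Alkbh5, the lowest without P replicate 1. The cause of these shifts was not tested. Deviations of same-numbered NP and P libraries correlated at 0.139, 0.0518, 0.251 and 0.155 over 11374 genes, and 4 of 4 P and 3 of 4 NP libraries correlated best with their own number, the exception being NP replicate 2 with P replicate 1 (0.136). This is a hint from the data that the numbers mark pairs. The paper describes 4 gradients with fractions pooled into NP and P, so the 2 datasets share gradients. No source used here says which libraries share one, and 1 value was under 0.1, so the numbers were not taken as pairs. The main tests leave the pairing out. Within the same number, NP exceeded P in 4 of 4 for Wtap and Ythdc2, where 0.125 is the smallest p that 4 pairs allow. The share of all genes with this pattern was not computed. As 71.4% of all tested genes had a negative log2 fold change, it is not read as a trait of these genes. With the replicate block 0 of the 10 genes were called. The block cannot change a fold change or ratio difference here, as every number has a library in both datasets. Only errors and p-values could move, so the unchanged signs say nothing about pairing. Depth limits Mettl14, Ythdf1, Ythdc1, Ythdc2 and Fto, each with 0 to 4 reads in its least covered library.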
